A study of Mus musculus with 12 samples.

Results

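Lag3, Havcr2, Tigit, Cd226, Tox and Lgals9 were followed through every annotated class of white blood cell in mouse mammary tumours. The 6 genes were chosen by name: 3 inhibitory receptors of T cells (Lag3, Tim-3, which is the product of Havcr2, and Tigit), the activating receptor Cd226, the transcription factor Tox and the Tim-3 ligand galectin-9 (Lgals9). All 6 of 6 were in the tables, among 18574 genes in the CD45 libraries and 19369 in the Total libraries.

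Lag3, Tim-3 and Tigit are induced on T cells by stimulation of the antigen receptor and hold back further activation, and their lasting joint expression, with Tox, marks the state called exhaustion. Lag3 binds MHC class II, Tim-3 is also made by dendritic cells and macrophages, and Tigit and Cd226 compete for the same ligands, Pvr and Nectin2, with opposite effects on T and NK cells. Tox is a DNA-binding protein needed for exhausted CD8 T cells to persist, and is also active in other T cells.

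The tumours came from 4T1, a triple-negative mammary carcinoma line of BALB/c mice, placed in the mammary fat pad of female BALB/c mice 9 to 11 weeks old with an intact immune system. Clones E, EM1, EM2, EM3 and M cover states from epithelial to mesenchymal, without the labels giving a state for each, and are 5 lines that each descend from 1 cell of 4T1, and the sixth group is the uncloned parental line. Each of the 6 groups is 1 tumour, sequenced as a Total library of the digested tumour and as a CD45 library of cells held by magnetic beads against CD45, the antigen common to white blood cells. Because no group has a replicate, no test between tumours was possible, and every 95% interval below covers counting error only. The series asks how tumour-cell state goes with immune composition and cytotoxic function.

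Levels are given in CPM, the captured RNA molecules (UMIs) of a gene summed over all cells of a class in a library and scaled to the same total of UMIs in every sum, so they are compared within a gene and not between genes. Class names are the authors', from a broader column (T, NK, B, macrophage, dendritic cell, granulocyte, other myeloid) and a finer column that splits T cells into subtypes named by Gzmb, Lef1, Cd44, Foxp3 or Mki67. The 12 libraries held 28083101 to 122055131 UMIs over 6709 to 13467 cells, and 53611 cells of the CD45 libraries remained after removal of doublets. The libraries of Clones E and EM3 shared the leading bases of their cell barcodes far more with each other than with other libraries. So did those of EM1 and EM2, and the Total and CD45 libraries of each tumour. As a share of the smaller library, these 14 pairs matched in 12.2% to 19.1% of barcodes by leading bases, and in no whole barcode. The highest share was between the Total and CD45 libraries of Clone M, and the other 52 pairs had 0.686% to 1.91%. Comparisons of EM3 with E and of EM1 with EM2 therefore lie within a shared barcode pool. For M against E, and for every other comparison across pools, the pool and the clone cannot be told apart.

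The genes lie on different chromosomes except for one pair. In GRCm38, Lag3 spans chr6:124904361-124911705 on the minus strand, Tigit chr16:43648867-43664146 on the minus strand and Tox chr4:6686353-6991557 on the minus strand. Havcr2 spans chr11:46454935-46481255 on the plus strand and Lgals9 chr11:78962974-78984946 on the minus strand. The 250 bases before the RefSeq start are shown for the 3 members found in the RefSeq promoter table (GRCm38.p6) and reported here. Their UMIs lay in different classes: Havcr2 in T cells and myeloid cells, Tigit mainly in T and NK cells, Lgals9 in all classes. Capitals mark matches to 3 short motifs searched on both strands: the AP-1 site TGANTCA, the NFAT core GGAAA and the interferon response element.
Havcr2 (chr11:46454681-46454930, plus strand): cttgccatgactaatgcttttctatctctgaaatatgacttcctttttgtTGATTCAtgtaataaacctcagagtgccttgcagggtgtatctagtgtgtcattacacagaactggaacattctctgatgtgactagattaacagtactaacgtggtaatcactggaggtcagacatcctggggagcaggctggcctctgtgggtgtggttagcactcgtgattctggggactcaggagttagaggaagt
Tigit (chr16:43664185-43664434, minus strand): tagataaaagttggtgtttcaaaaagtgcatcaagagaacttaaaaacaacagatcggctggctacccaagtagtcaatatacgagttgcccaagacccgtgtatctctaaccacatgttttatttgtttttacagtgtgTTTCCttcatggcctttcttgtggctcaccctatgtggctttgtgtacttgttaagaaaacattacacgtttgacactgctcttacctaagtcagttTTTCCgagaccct
Lgals9 (chr11:78984925-78985174, minus strand): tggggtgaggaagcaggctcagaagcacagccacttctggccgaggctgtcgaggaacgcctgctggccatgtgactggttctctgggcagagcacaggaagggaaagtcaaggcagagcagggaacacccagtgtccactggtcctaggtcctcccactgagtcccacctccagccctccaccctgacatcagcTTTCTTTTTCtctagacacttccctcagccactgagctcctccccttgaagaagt
Havcr2 held 1 AP-1 match, 200 bases before the start. Tigit held 2 matches to the NFAT core, both read on the other strand, 110 and 13 bases before the start. Lgals9 held 1 interferon response match, read on the other strand, 55 bases before the start, and an NFAT core at 148 bases that is left in lower case. Of 32851 promoters of this length, 6.75% held the AP-1 letters, 55.6% the NFAT core and 2.98% the interferon response letters. A match of letters is a description of the window and not a measured binding site.

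Among T-cell subtypes Lag3, the receptor for MHC class II, was highest in Gzmb+ Cd8+ T cells, the subtype named for granzyme B. There it held 1018 CPM (interval 963 to 1075; 1288 UMIs in 561 cells) in Clone E, and 1053 (988 to 1122), 1036 (927 to 1155) and 1011 (941 to 1084) in Clones EM1, EM2 and EM3. Clone M held 351 (247 to 484; 37 UMIs in 63 cells). The tumours of E, EM1, EM2 and EM3 lay on top of each other and the tumour of M lay apart below them, with no overlap of intervals. Clone M over E was 0.345 (0.242 to 0.478), and Clone M over EM1, EM2 and EM3 was 0.333, 0.339 and 0.347. EM3 over E was 0.993 (0.907 to 1.09), and EM1 over EM2 was 1.02 (0.896 to 1.16). The parental tumour had only 8 such cells and 8 Lag3 UMIs, and was left out of all comparisons of this subtype between tumours.

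The share of cells told the same. With every cell thinned to 1000 UMIs, a Lag3 UMI was found in 51.8% of the 546 Gzmb+ Cd8+ T cells kept in Clone E (47.5 to 56.1). Clones EM1, EM2 and EM3 gave 54.8%, 57.3% and 57.0%, and the 57 cells of Clone M 19.3% (10.0 to 31.9). Without thinning the shares were 75.6%, 54.7%, 56.0%, 80.4% and 30.2%, at median depths of 1986, 1169, 1134, 2211 and 1494 UMIs per cell, so that M was lowest at a depth above those of EM1 and EM2. Cd44-MHCIIhi B cells, which should lack Lag3, gave 0% to 1.02% after thinning, at median depths of 862 to 1336 UMIs, below the T-cell shares. Clone M had only 19 of these B cells, with 0 Lag3 UMIs and too few for a share, so this background was not measured in its library. Thinning left out 15, 247, 95, 6 and 6 cells.

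The Clone M class also differed in its CD8 genes and in markers of other cells, while Gzmb did not reach a 2-fold difference from E. Cd8a, a chain of the CD8 coreceptor, was at 559.6 CPM in Clone M against 1193 in E, and the 2 CD8 markers summed to 1034 against 1959. All 6 T-cell markers were detected in both, summing to 5842 and 6807. Of the marker lists of other cells, that of dendritic cells (6 genes) summed to 1280 in M and 323 in E, of which Ccr7, which naive T cells also carry, made up 1242 and 305; Flt3, Xcr1 and Clec9a were at 0 in M. Macrophage markers (7 genes) summed to 597.5 and 729, with Adgre1 and Fcgr1 at 0 in M. Granulocyte markers (5 genes) summed to 1736 and 1168, NK markers (4 of 5 genes in the tables) to 332 and 712 with Ncr1 at 0 in both, plasmacytoid dendritic cell markers (3 genes) to 313 and 157 with Siglech and Ccr9 at 0 in M, and the 4 B-cell and 4 tumour-cell markers were all at 0 in M. Mast cell and basophil markers (4 genes) summed to 313 and 51.4, all of it Kit, with Cpa3, Mcpt8 and Gata2 at 0 in both, and fibroblast markers (4 genes) to 9.48 and 17.4. The part of these differences in the Lag3 result was not tested. Among thinned cells with a Cd8a UMI, 3 of 20 (15.0%, 3.21 to 37.9) carried Lag3 in M and 186 of 354 (52.5%, 47.2 to 57.8) in E. Among cells without a Cd8a UMI, 8 of 37 (21.6%) carried it in M and 97 of 192 (50.5%) in E.

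**Figure D1:**
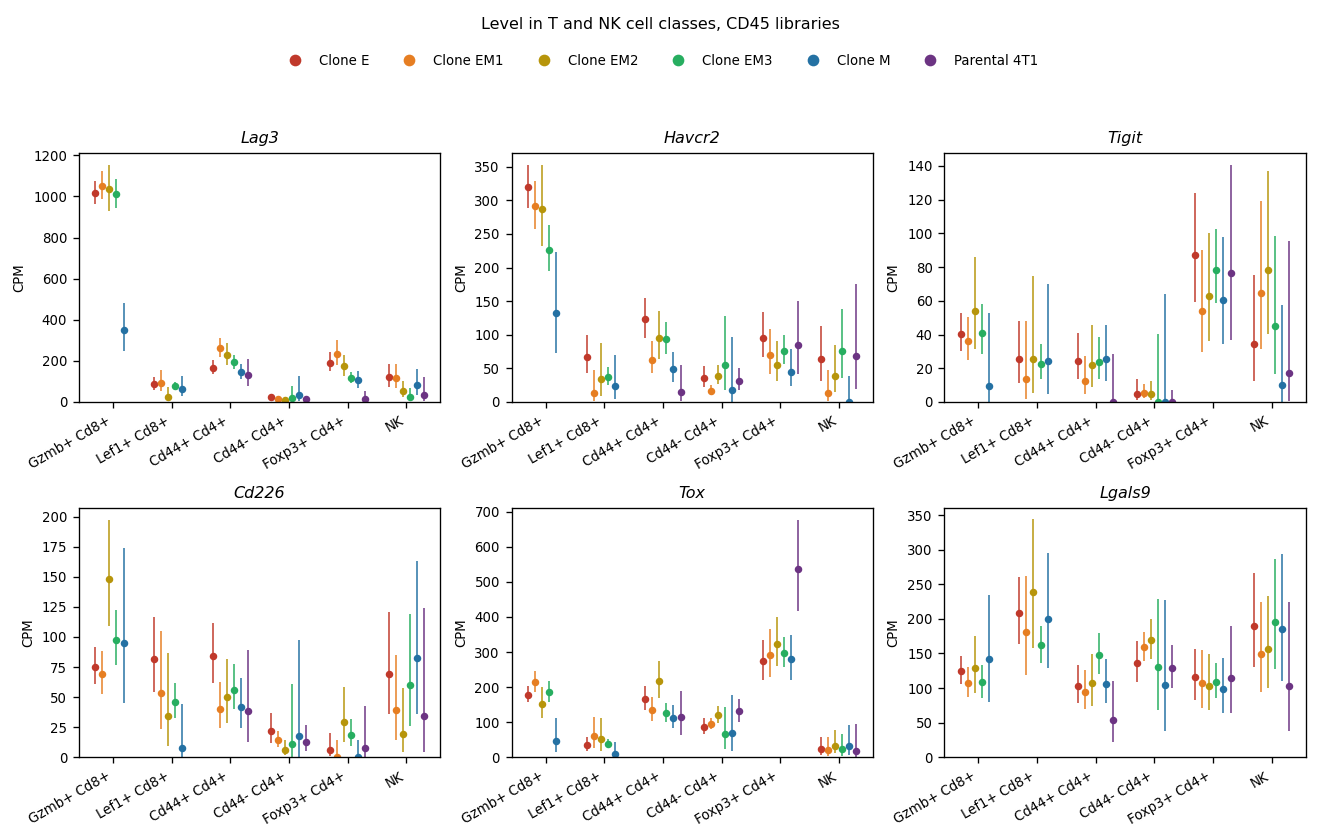
Level of each gene in the lymphoid classes of the CD45 libraries (vertical axis, CPM; NK cells by the broader column). Points are tumours with at least 30 cells of the class and bars are 95% Poisson intervals; Lag3 in Gzmb+ Cd8+ T cells lies between 1011 and 1053 in Clones E, EM1, EM2 and EM3 and at 351 in Clone M.

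In the other T-cell subtypes Lag3 was several times lower than in Gzmb+ Cd8+ T cells, in 5 of 5 tumours against each of Lef1+ Cd8+ and Foxp3+ Cd4+ cells. Lef1+ Cd8+ T cells, the CD8 subtype named for Lef1, held 87.0, 93.6, 25.5, 77.0 and 64.0 CPM of Lag3 in E, EM1, EM2, EM3 and M. EM2, on 3 UMIs, was lowest, at 0.293 of E (0.0573 to 0.940), and the other 4 tumours lay close together, with Clone M over E at 0.736 (0.292 to 1.64). After thinning, 30.6% to 51.9% of these Lef1+ cells carried a UMI of Pdcd1, the gene of PD-1, against 75.4% to 94.3% of Gzmb+ Cd8+ T cells. Cd44+ Cd4+ T cells held 167, 263, 227, 192, 146 and 130.0 in E, EM1, EM2, EM3, M and the parental tumour. Clone M over E was 0.874 (0.625 to 1.21), so both could not be told apart at this depth, whereas EM1 lay above E at a ratio of 1.58 (1.20 to 2.08). EM1 and E lie in different barcode pools. Their thinned shares of cells with a Lag3 UMI overlapped, at 10.3% (6.52 to 15.4) and 7.56% (4.80 to 11.2). Cd44- Cd4+ T cells, the resting CD4 subtype, stayed between 9.81 and 34.9, and the Cd44+ cells exceeded them in 6 of 6 tumours. The label of the Cd44- class goes against part of its cells: after thinning to 1000 UMIs a Cd8a UMI was found in 8.33% to 22.6% of Cd44- Cd4+ T cells, against 0% to 5.22% of Cd44+ Cd4+ T cells and 15.9% to 35.0% of Lef1+ Cd8+ T cells.

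Lag3 also varied among Foxp3+ Cd4+ T cells, the regulatory T cells. Levels were 191, 234, 173, 118 and 105 CPM for Clones E, EM1, EM2, EM3 and M, and 15.3 (1.85 to 55.3; 2 UMIs in 93 cells) for the parental tumour. By level the parental tumour lay below the other 5 with no overlap, and M and EM3 lay below E. The thinned shares of cells with a Lag3 UMI did not separate the tumours. They were 12.9% (8.24 to 18.8) in E, 7.29% (4.73 to 10.7) in EM3 and 4.8% (1.78 to 10.2) in M. The parental tumour gave 1.69% (0.0429 to 9.09), an interval that overlapped those of all clones. The ratio of M to E was 0.551 (0.342 to 0.867), EM3 over E 0.615 (0.438 to 0.864) and the parental tumour over M 0.145 (0.0168 to 0.576). Dividing Mki67+ T cells, which mix CD8 and CD4 cells, held 249, 256, 172 and 339 in E, EM1, EM2 and EM3, with EM3 over E at 1.36 (1.05 to 1.77). Lag3 was at 0 UMIs in all 6 tumours in Trdc+ double-negative T cells, of which there were 6 to 25 a tumour, too few to set a low limit.

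The NK class needed a check of its label, because the 2 annotation columns disagree on it. The finer column called 150, 193, 235, 100, 63 and 100 cells NK (E, EM1, EM2, EM3, M, parental, doublets included), of which the broader column called 61, 61, 103, 30, 14 and 62 other myeloid cells. Those cells carried Siglech, a marker of plasmacytoid dendritic cells, at 3008 to 3749 CPM, with no Ncr1 UMI. They held Lag3 at 620.0, 407, 516, 305, 375 and 734 CPM, whereas cells that both columns called NK held 121, 117, 52.3, 22.6, 82.6 and 34.3. In Clone M the interval of these 14 cells, 229 to 579, overlapped that of its Gzmb+ Cd8+ T cells, which held 351. NK cells below are therefore those of the broader column. In the Total libraries, too, the B-cell class held Lag3 mainly in cells with a Siglech UMI, at 298 to 487, against 0 to 36.7 in the rest of that class.

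**Figure D2:**
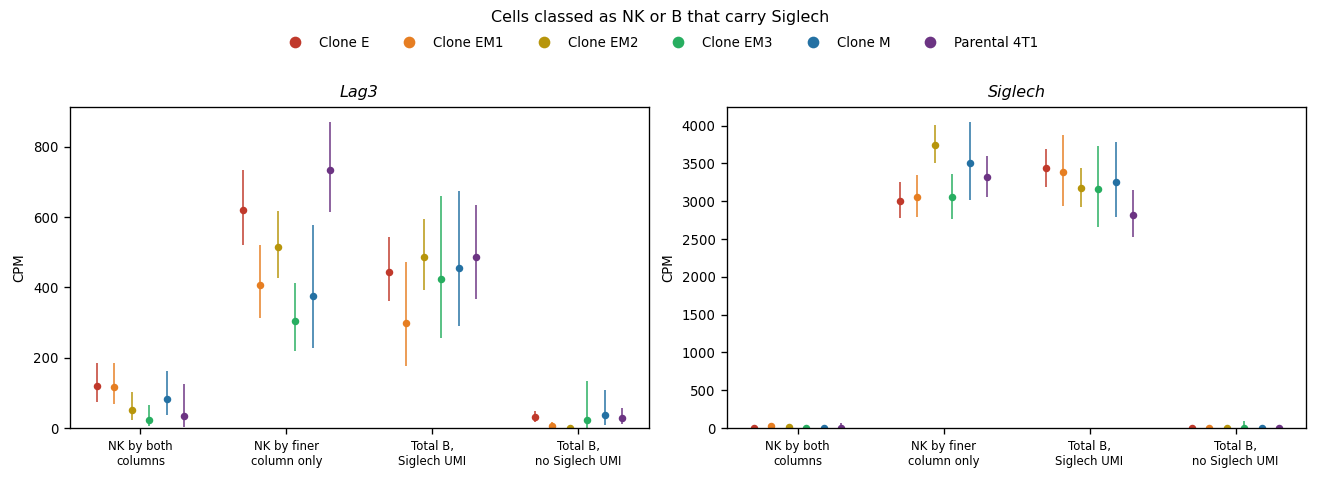
Lag3 (left) and Siglech (right) in cells that both columns call NK, in cells that only the finer column calls NK, and in cells of the B class of the Total libraries with and without a Siglech UMI (CPM, 95% Poisson intervals, 1 point a tumour). The cells with Siglech hold Lag3 at 298 to 734, and the other cells at 0 to 121.

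Macrophages carried little Lag3. Levels were 31.1, 45.8, 28.8, 17.9, 52.9 and 50.9 CPM for E, EM1, EM2, EM3, M and the parental tumour. Clone M and the parental tumour lay highest and EM3 lowest. T-cell markers (6 of 6 detected) summed to 10.4 in M and 24.6 in E, and their part in these values was not tested. Against E, M was at 1.70 (1.56 to 1.86) and EM3 at 0.576 (0.523 to 0.633), and the Total libraries gave 1.30 (1.17 to 1.43) and 0.631 (0.567 to 0.702). A median-of-ratios scaling in place of the UMI total shifts all macrophage ratios of M over E by 0.33 on the log2 scale, and leaves Lag3 at 1.35 (1.24 to 1.48). At a 2-fold limit 0 of the 3 members with enough UMIs in macrophages were lower or higher in M, where 3.32% of 6719 genes were lower and 5.58% higher. In dendritic cells Clone M went the other way, at 18.6 against 42.0 in E (ratio 0.443, 0.205 to 0.857, on 10 UMIs in M). The Total libraries gave 18.7 and 24.0 in dendritic cells, with overlapping intervals. Macrophage markers in dendritic cells (7 of 7 detected) summed to 1000 in M and 3943 in E, and their part in this ratio was not tested. Granulocytes held 2.99 to 12.7, other myeloid cells, which include the cells with Siglech, 32.7 to 90.8, and tumour cells of the Total libraries 6.73 to 27.9.

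Havcr2, the gene of Tim-3, was carried by T cells and by myeloid cells alike. In Gzmb+ Cd8+ T cells it held 319 CPM (289 to 352) in E, 292 and 287 in EM1 and EM2, 227 (194 to 263) in EM3, and 133 (72.6 to 223; 14 UMIs) in M. Levels stepped down from E to EM3 to M: EM3 over E was 0.710 (0.591 to 0.849) and M over E 0.416 (0.225 to 0.706), while EM3 and M overlapped. After thinning, 23.3%, 20.5%, 19.1%, 18.0% and 8.77% of cells carried a Havcr2 UMI, against 1.02% to 5.29% of Cd44-MHCIIhi B cells. The lower end of the Clone M interval, 2.91%, lay within that range, which comes from the other tumours.

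In both activated CD4 subtypes the level of Havcr2 was lower in Clone M than in E. Its shares of cells lay near those of Cd44-MHCIIhi B cells. Cd44+ Cd4+ T cells held 123, 63.0, 94.6, 93.2, 48.5 and 15.3 in E, EM1, EM2, EM3, M and the parental tumour, with M over E at 0.395 (0.231 to 0.652). Foxp3+ Cd4+ T cells held 95.7, 69.1, 55.2, 75.4, 45.2 and 84.2, with M over E at 0.472 (0.223 to 0.935). Clone E was highest in both, and the parental tumour lowest in the first but not in the second. After thinning, a Havcr2 UMI was found in 7.56% (4.80 to 11.2) of Cd44+ and 8.19% (4.55 to 13.4) of Foxp3+ cells in E and in 3.29% and 4.0% in M. The Cd44-MHCIIhi B cells of E gave 5.29% (2.45 to 9.81), the highest of the 5 tumours measured, so the T-cell shares are not set apart from those of B cells. Of the 5 members with enough UMIs in Foxp3+ cells, Havcr2 alone was 2-fold lower in M than in E, where 7.15% of 7328 genes were. Lef1+ Cd8+ T cells held 67.4 in E and 13.4 to 36.8 in EM1, EM2, EM3 and M. NK cells held 63.3, 13.0, 39.2, 75.3, 0 and 68.6, where 0 UMIs in 49 cells of Clone M allow a level of up to 31.0 (3 counts).

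Among myeloid cells, macrophages held 344 CPM (337 to 349.9) in E, then 239.7, 289, 252 and 216 in EM1, EM2, EM3 and M, and 195 in the parental tumour. Clone E was highest and the parental tumour lowest, and no 2 intervals overlapped, although those of EM1 and EM3 nearly met. The ratio of M to E was 0.628 (0.606 to 0.651), and the Total libraries gave 0.553 (0.534 to 0.572). Dendritic cells lay above macrophages in 6 of 6 tumours, by 1.25 to 2.71 times, at 429.6, 351, 480.3, 367, 585 and 409 in E, EM1, EM2, EM3, M and parental. Here Clone M was highest, at 1.36 times E (1.19 to 1.55). That order did not return in the Total libraries, where dendritic cells held 614 in E and 462 in M and the ratio was 0.752 (0.651 to 0.868). Macrophage markers in dendritic cells of the CD45 libraries summed to 1000 in M and 3943 in E, and macrophages hold less Havcr2. The part of these markers in the CD45 ratio was not tested. Granulocytes held 32.9 to 95.3, highest in E in both kinds of library.

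**Figure D3:**
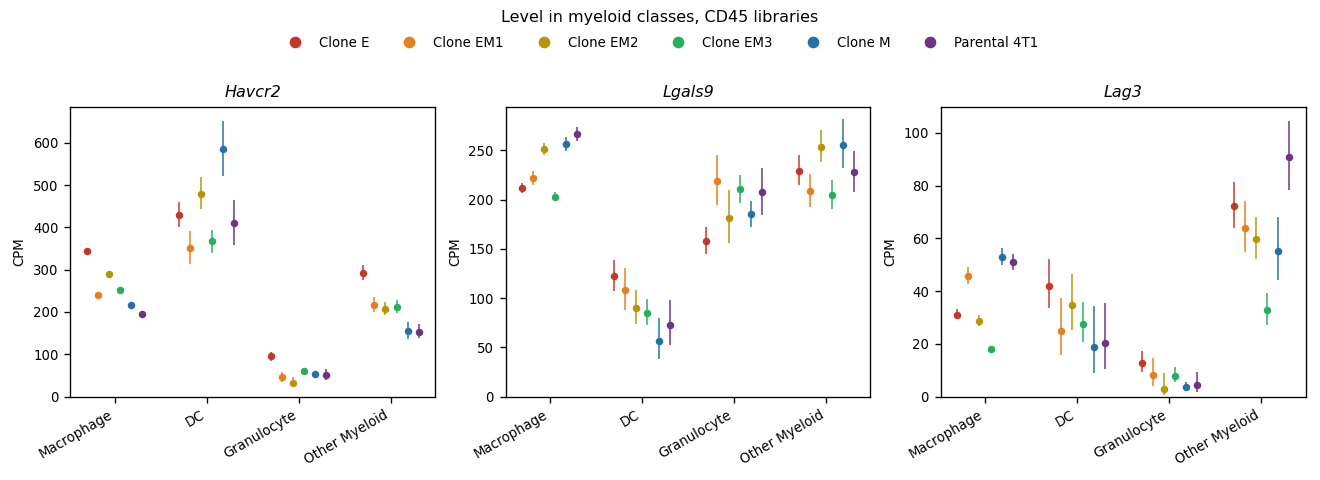
Level of Havcr2, Lgals9 and Lag3 in the myeloid classes of the CD45 libraries by the broader column (vertical axis, CPM; points are tumours, bars 95% Poisson intervals). Havcr2 lies between 195 and 344 in macrophages and between 351 and 585 in dendritic cells (DC).

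Tigit was sparse and belonged mainly to lymphoid cells. Among T-cell subtypes regulatory T cells had the highest level in each tumour, at 87.2, 53.8, 62.6, 78.4, 60.3 and 76.5 CPM in E, EM1, EM2, EM3, M and the parental tumour. All 6 intervals overlapped, and M over E was 0.691 (0.353 to 1.30). Foxp3+ cells exceeded Cd44+ Cd4+ T cells in 6 of 6 tumours, by 2.37 to 4.27 times where both held UMIs. They exceeded Gzmb+ Cd8+ T cells in 5 of 5 tumours, by 1.17 to 6.35 times, but the interval of the ratio lay above 1 in only 2. Gzmb+ Cd8+ T cells held 40.3, 36.1, 53.7 and 41.2 in E, EM1, EM2 and EM3, and 9.48 (0.240 to 52.8) in Clone M, where the value is 1 UMI in 63 cells, so that this depth cannot show whether M differs. NK cells held 34.5, 64.9, 78.4, 45.2, 10.3 and 17.2 on 1 to 12 UMIs. In macrophages Tigit was at most 0.147. Dendritic cells held 17.5 and 17.8 times the macrophage level in 2 of 6 tumours, with intervals above 1. T-cell markers (6 genes) summed to 72.8 to 314 CPM in dendritic cells and 10.4 to 25.2 in macrophages. Their part in these ratios was not tested.

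Cd226, which binds the ligands of Tigit and activates the cell, ran differently. It was higher in Gzmb+ Cd8+ T cells than in Foxp3+ cells, at 75.1, 68.9, 148, 97.9 and 94.8 CPM in E, EM1, EM2, EM3 and M. EM2 was highest and Clone M lay in the middle. EM1 over EM2, within a barcode pool, was 0.464 (0.313 to 0.692), and M over E was 1.26 (0.587 to 2.43). The thinned shares of cells were 4.95%, 6.59%, 15.3%, 7.54% and 10.5%. Foxp3+ Cd4+ T cells held 5.63, 0, 29.4, 18.1, 0 and 7.65, on at most 12 UMIs. Lef1+ Cd8+ T cells held 81.4 in E, from 34.0 to 53.5 in EM1, EM2 and EM3, and 8.01 in Clone M, the last on 1 UMI, with M over E at 0.0983 (0.00241 to 0.593). In that class CD8 markers summed to 536 in M and 1081 in E. Regulatory T-cell markers summed to 873 and 208, with no Foxp3 UMI in M. The part of these differences in the Cd226 ratio was not tested. In NK cells Clone M held 82.6 and E 69.0, with overlapping intervals. Dendritic cells held Cd226 at 17.8 to 67.2 times the macrophage level in 5 of 6 tumours, with intervals above 1. T-cell markers, given above for Tigit, also lay higher in dendritic cells than in macrophages, and their part in these ratios was not tested.

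Set against each other, the UMIs of the competing pair divided by subtype. Summed over all 6 tumours, with 1 UMI of the parental tumour in the Gzmb+ subtype, Tigit gave 85.9% (79.6 to 90.8) of the Tigit and Cd226 UMIs of regulatory T cells, 31.7% (27.3 to 36.3) of those of Gzmb+ Cd8+ T cells and 27.3% (21.2 to 34.0) of those of Cd44+ Cd4+ T cells. By tumour the share in regulatory T cells ran from 68.0% in EM2 to 100% in EM1 and M, and in Gzmb+ Cd8+ T cells from 9.09% in M, on 11 UMIs, to 34.9% in E. The intervals of these 2 subtypes did not overlap in E, EM1, EM2, EM3 or M. Because the genes differ in length and capture, the shares compare subtypes and not the amounts of both receptors.

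Tox was highest in regulatory T cells and not in Gzmb+ Cd8+ T cells. Foxp3+ cells held 273, 292, 324, 297, 279 and 536 CPM in E, EM1, EM2, EM3, M and the parental tumour. The 5 clones overlapped, and the parental tumour lay above all of them, at 1.92 times Clone M (1.37 to 2.70). Gzmb+ Cd8+ T cells held 179, 214, 152 and 185 in E, EM1, EM2 and EM3, and 47.4 (15.4 to 111; 5 UMIs) in Clone M. The interval of M lay below those of the other clones, and M over E was 0.265 (0.0854 to 0.629). Foxp3+ cells exceeded Gzmb+ Cd8+ T cells in 5 of 5 tumours, by 1.36 to 5.88 times. After thinning, 20.5% to 26.6% of Foxp3+ cells of the clones and 45.8% (32.7 to 59.2) of those of the parental tumour carried a Tox UMI, against 14.3% to 16.8% of Gzmb+ Cd8+ T cells of E, EM1, EM2 and EM3 and 5.26% of Clone M. The Clone M share is 3 of 57 cells, and its interval of 1.10 to 14.6 overlapped those of the other clones. Between Foxp3+ and Gzmb+ Cd8+ T cells of the same tumour, the thinned intervals overlapped in E, EM1, EM2 and EM3 and lay apart in M.

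The CD4 subtypes held Tox at intermediate levels. Cd44+ Cd4+ T cells held 167, 134, 217, 126, 113 and 115 in E, EM1, EM2, EM3, M and the parental tumour, with M over E at 0.680 (0.471 to 0.969). Cd44- Cd4+ T cells held 65.4 to 130.3, and Lef1+ Cd8+ T cells 8.01 to 60.2 in the clones. Outside T cells, NK cells held Tox at 17.2 to 32.7 on 1 to 5 UMIs, B cells 0 to 17.1, dendritic cells 1.69 to 8.62, granulocytes 0 to 3.70 and macrophages 0.246 to 0.650. Regulatory T cells of the parental tumour thus combined the lowest Lag3 with the highest Tox of the 6 tumours, on 2 and 70 UMIs.

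Lgals9, galectin-9, had UMIs in every class. In Gzmb+ Cd8+ T cells it held 125, 107, 129.5, 108 and 142 CPM in E, EM1, EM2, EM3 and M, with all intervals overlapping. Lef1+ Cd8+ T cells held more, at 208, 180.5, 238, 162 and 200.1, and exceeded Gzmb+ cells in 5 of 5 tumours, with the interval of the ratio clear of 1 in 4. Foxp3+ cells stayed between 97.9 and 115. After thinning, 9.84% to 14.1% of Gzmb+ Cd8+ T cells and 4.8% to 11.9% of Foxp3+ cells carried a Lgals9 UMI. Cd44-MHCIIhi B cells gave 5.10% to 13.3% in the 5 tumours measured, so these T-cell shares are not set apart from those of B cells. Within Cd44+ Cd4+ T cells EM3 lay above E, at 148 against 103 (ratio 1.43, 1.03 to 2.01).

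Macrophages held Lgals9 at 212, 222, 251, 203, 256 and 266 in E, EM1, EM2, EM3, M and the parental tumour. The parental tumour and M were highest and EM3 lowest, over a narrow range. Clone M over E was 1.21 (1.17 to 1.26), a direction that turned to 0.964 (0.930 to 0.999) with the median-of-ratios scaling, while the Total libraries gave 1.41 (1.35 to 1.46). EM3 over E was 0.958 (0.928 to 0.989) in the CD45 libraries and 1.28 (1.24 to 1.33) in the Total libraries. Dendritic cells lay below macrophages in 6 of 6 tumours, at 122, 108, 89.6, 85.3, 55.9 and 72.8. Their highest value was in E and their lowest in M, at a ratio of 0.458 (0.302 to 0.672), but in the Total libraries E and M held 55.7 and 46.0 with overlapping intervals. Macrophage markers in this class, given above for Lag3, lay lower in M as well, and macrophages hold more Lgals9; their part in this ratio was not tested. With Lag3 this made 2 of 3 members measured in CD45 dendritic cells at least 2-fold lower in M, where 9.73% of 6805 genes were. Granulocytes held 158 to 219. Among other cells of the Total libraries, endothelial cells held 219 to 370.4 and tumour cells 55.2, 122, 94.2, 82.0, 108 and 50.7.

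**Figure D4:**
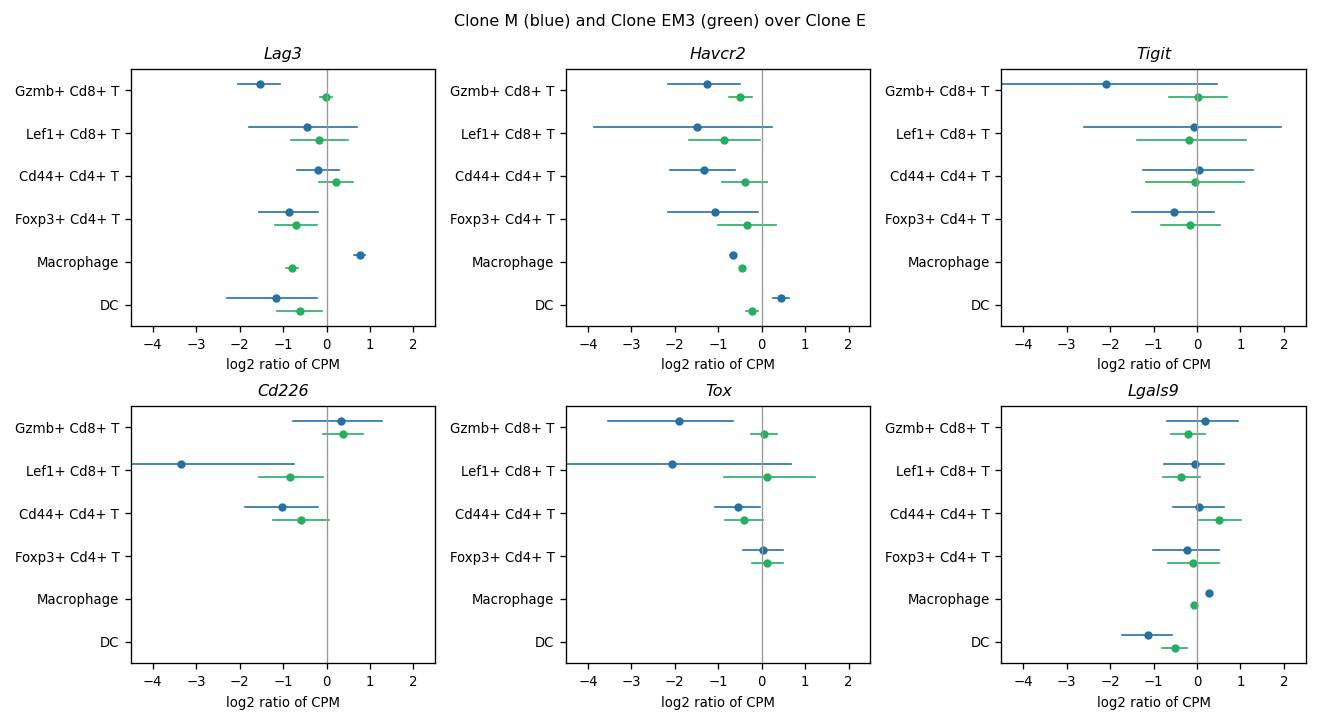
Log2 ratio of Clone M (blue) and EM3 (green) over Clone E for each gene and class of the CD45 libraries, with exact 95% intervals of counting error; pairs with too few UMIs are not drawn, and intervals past -4.5 run off the left edge. In Gzmb+ Cd8+ T cells Lag3 lies at -1.54 in M and -0.01 in EM3, and in macrophages at 0.77 and -0.80.

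Across Gzmb+ Cd8+ T cells, 4 of the 6 genes (Lag3, Havcr2, Tigit and Tox) were at least 2-fold lower in Clone M than in E and none was at least 2-fold higher. Of all 7529 genes with at least 10 UMIs over both sums together and at least 20 CPM in 1 of them, 10.1% were at least 2-fold lower and 9.72% at least 2-fold higher. The value of Tigit rests on 1 UMI in M, and its ratio of 0.235 had an interval of 0.00584 to 1.37. The median log2 ratio of the 6 genes was -1.40, against 0.07 over all genes. Of all genes, 4.2% had a lower ratio than Lag3, 6.75% than Havcr2, 1.49% than Tigit, 2.15% than Tox, 57.0% than Lgals9 and 65.5% than Cd226. For EM3 over E, 0 of 6 were 2-fold lower and 0 higher, where 1.14% of 7474 genes were lower and 2.54% higher. For EM1 over EM2, 1 of 6 (Cd226) was 2-fold lower, where 2.17% of 7575 genes were.

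Lists of genes that go with these receptors are read against the same background, 10.1% of all genes lower and 9.72% higher in Clone M than in E, and several of their counts are small. The sum of Clone M rests on 105436 UMIs and that of E on 1265096, so a ratio of a weak gene rests on few UMIs in M. Of 16 measured members of an exhaustion list, 4 were at least 2-fold lower in Clone M and 2 higher, with a median log2 ratio of -0.62. Entpd1, an ectoenzyme of exhausted cells, was at 75.9 against 418 CPM, Rgs16, a regulator of G-protein signals, at 702 against 1928, and Eomes, a transcription factor, at 37.9 against 220.5. Nr4a1, induced by the antigen receptor, was higher, at 218 against 75.9. Pdcd1, the gene of PD-1, did not reach 2-fold, at 2409 against 3941 (ratio 0.611).

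Progenitor and naive genes lay the other way, with 8 of 10 measured at least 2-fold higher in Clone M and 2 lower, and a median log2 ratio of 2.01. Klf2, which keeps T cells in circulation, was at 939 against 101, Ccr7, the lymph node homing receptor, at 1242 against 305, and Il7r, the IL-7 receptor, at 332 against 97.2. Of 12 effector genes 3 were lower and 1 higher: Nkg7, a granule protein, was at 1053 against 2937, Prf1, perforin, at 47.4 against 153, Tnf at 9.48 against 28.5 on 1 UMI, and Gzma at 322 against 138. Of 11 T-cell identity genes 2 were lower (Cd8a and Cd4) and 1 higher (Cd28). The lists give no test.

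For EM3 over E in the same class, where 1.14% of all genes were at least 2-fold lower and 2.54% higher, the counts were as follows. Of 16 exhaustion genes 1 (Cd101) was lower and 0 higher, with a median log2 ratio of -0.18. Of 7 progenitor and naive genes measured 3 were higher, Ccr7 at 2.98 times E, Il7r at 2.08 and Bach2 at 2.21. Of 12 effector genes 3 were lower and 2 higher, and of 11 T-cell identity genes 0 were lower and 1 higher.

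The mix of both CD8 subtypes moves any value taken over CD8 T cells as a whole. Gzmb+ cells made up 74.2%, 87.0%, 76.4%, 38.3%, 48.5% and 22.9% of CD8 T cells in E, EM1, EM2, EM3, M and the parental tumour. Lag3 over both subtypes was at 0.627 of E in EM3 and 0.240 in M. With both subtypes weighted as in E, these ratios became 0.990 and 0.354. Havcr2 moved from 0.473 to 0.701 in EM3 and from 0.280 to 0.412 in M, and Tox from 0.721 to 1.04 and from 0.177 to 0.264.

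Lag3 and Havcr2 were also followed within single Gzmb+ Cd8+ T cells. In thinned cells of Clone E a Lag3 UMI was found in 57.5% of the 127 cells with a Havcr2 UMI and in 50.1% of the 419 without one. The shares were 64.4% and 52.3% in EM1, 76.7% and 52.8% in EM2, and 61.8% and 56.0% in EM3. The difference has the same sign in these 4 tumours, but the intervals of each tumour overlapped. Of the other pairs, a Lag3 UMI was found in 56.4%, 58.1%, 70.8% and 63.3% of cells with a Tox UMI and in 51.1%, 54.1%, 54.9% and 55.9% of those without in E, EM1, EM2 and EM3, the same sign in these 4 with overlapping intervals. For Lag3 and Pdcd1 the sign differed: Lag3 was found in 52.6%, 58.5%, 58.2% and 56.0% of cells with a Pdcd1 UMI and in 38.7%, 36.5%, 52.2% and 69.6% of those without. Only in EM1 were the intervals of that pair apart, at 53.2 to 63.6 against 25.6 to 48.5. The sign seen with Havcr2 and Tox was also seen with Cd8a in these 4 tumours. Lag3 was found in 52.5%, 58.8%, 59.1% and 60.6% of cells with a Cd8a UMI. Without one the shares were 50.5%, 46.5%, 52.4% and 52.3%, with overlapping intervals. In Clone M the sign for Cd8a was the other way, at 15.0% and 21.6%. Tigit was found in 4.59% of cells with a Lag3 UMI and 3.80% of those without in E, in 4.15% and 1.51% in EM1, in 5.56% and 7.46% in EM2 and in 5.17% and 3.82% in EM3, with overlapping intervals. Clone M held 5 cells with a Havcr2 UMI after thinning, too few for such a share.

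T and NK cells of the Total libraries were a second sampling of the same tumours. Lag3 over all T and NK cells was at 423, 335, 221, 329, 132 and 41.6 in the CD45 libraries (E, EM1, EM2, EM3, M, parental) and at 428, 319, 214, 349, 99.6 and 27.4 in the Total libraries. E stayed highest and M and the parental tumour lowest in both, and EM1 and EM3, which are close, changed places. The ratio of M to E was 0.312 (0.263 to 0.368) and 0.233 (0.202 to 0.267). Such pooled values also carry the mix of subtypes. In the CD45 libraries, Gzmb+ Cd8+ T cells made up 561 of 1894 T and NK cells for Clone E. They made up 687 of 3160, 252 of 1960 and 311 of 1795 for EM1, EM2 and EM3. Clone M had 63 of 735, and the parental tumour 8 of 841. The part of this mix in values over all T and NK cells was not tested. Havcr2 was at 164, 98.4, 86.7, 104, 47.5 and 52.8 in the CD45 libraries and at 159, 80.9, 91.6, 105, 69.4 and 26.4 in the Total libraries. Of 36 pairs of gene and tumour, 9 had intervals of the Total to CD45 ratio that excluded 1, 4 of them for Tox, which was lower in the Total libraries in EM1, EM2, M and the parental tumour. In T and NK cells of the CD45 libraries 3.03% of 7660 genes were at least 2-fold lower in M than in E, and 2 of 6 members, Lag3 and Havcr2. Most T and NK cells carried a UMI of at least 1 of 6 myeloid genes; among the 31 cells of M and 72 of E without one, Lag3 in M over E was 0.802 (0.333 to 1.75), which no longer passed the 2-fold limit, and Havcr2 0.147 (0.00351 to 0.937).

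The Total annotation does not split T cells, so cells with a Cd8a or Cd8b1 UMI and no Cd4 UMI were taken in both libraries. Lag3 in them was at 654, 490.3, 419.7, 561, 193 and 42.1 in the Total libraries, and 691, 557, 520.0, 516, 189.6 and 85.9 in the CD45 libraries. M stood at 0.295 (0.228 to 0.377) and 0.274 (0.194 to 0.377) of E. Tox in these cells was at 126 in E and 11.7 in M of the Total libraries, a ratio of 0.0930 (0.0252 to 0.240), and at 140.3 and 24.3 in the CD45 libraries (0.173, 0.0558 to 0.409). Clones E, EM1, EM2 and EM3 lay close together in the Total libraries, at 115 to 126. Clone M rested on 4 UMIs there and on 5 in the CD45 libraries. The order of Tox over the 6 tumours in these cells was the same in both. Over all T and NK cells it was not: the parental tumour was highest in the CD45 libraries, at 178 against 118 to 150.1 in the clones, and second lowest in the Total libraries, at 103 against 83.4 to 133. Tigit, at 27.3 in E and 26.3 in M of the Total libraries, did not separate them. Cd226 was highest in EM2 in both, at 93.9 and 106. The rank correlation (Spearman) between both kinds of library over the 6 tumours differed by gene in the cells with a Cd8 UMI. It was 1 for Tox, 0.943 for Cd226, 0.886 for Havcr2, 0.829 for Lag3, 0.429 for Tigit and -0.771 for Lgals9.

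**Figure D5:**
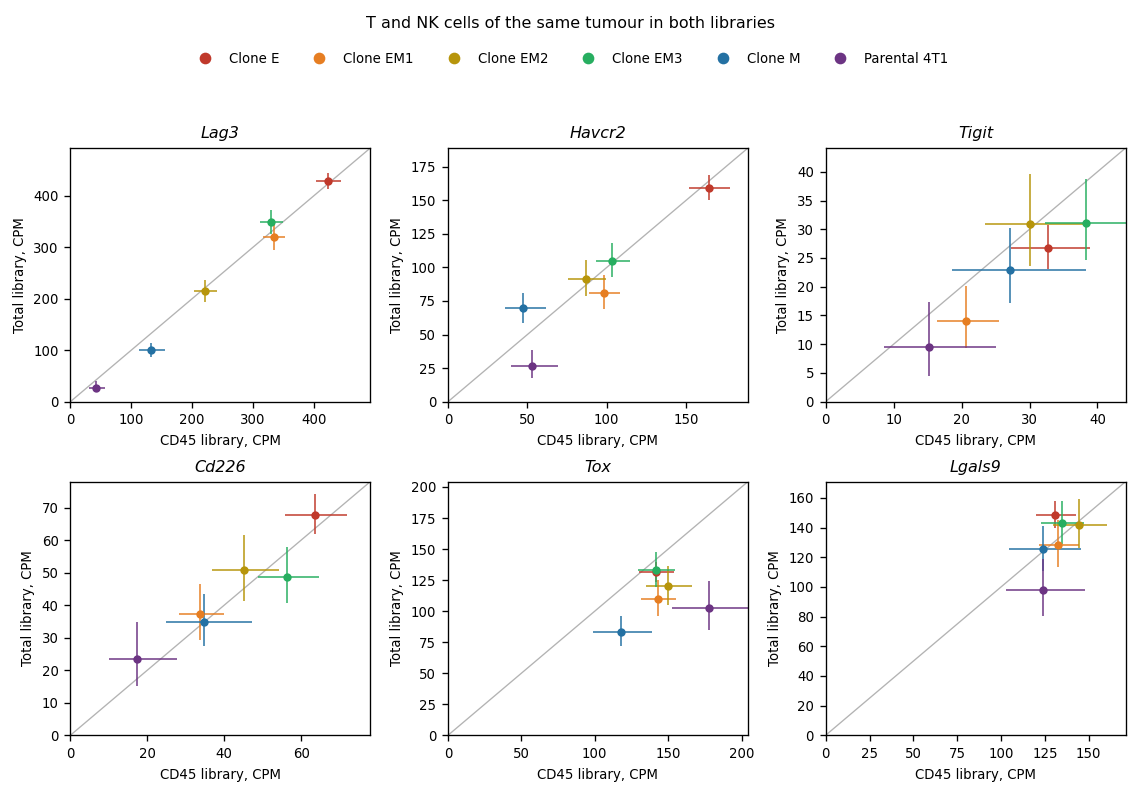
Level of each gene in T and NK cells of the Total library (vertical axis) against the CD45 library (horizontal axis) of the same tumour, in CPM with 95% Poisson intervals. The grey line marks equal levels, and Lag3 runs from 41.6 and 27.4 in the parental tumour to 423 and 428 in Clone E.

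The ligands of these receptors were followed in the same classes. Pvr, the shared ligand of Tigit and Cd226, was at 82.2 to 96.4 in macrophages and 106 to 139 in dendritic cells of the CD45 libraries, and at 229.6 to 248 in fibroblasts and 140.2 to 217 in tumour cells of the Total libraries. T and NK cells of the Total libraries held Pvr at 48.7 to 103, and macrophages there 83.9 to 103. Nectin2, their other ligand, was at 139 to 284 in endothelial cells, 73.4 to 132 in tumour cells and 6.41 to 32.1 in T and NK cells of the Total libraries. Ceacam1, a partner of Tim-3, was at 58.0 to 96.7 in granulocytes of the CD45 libraries and 56.0 to 113 in those of the Total libraries. Fgl1, a soluble ligand of Lag3, was at 5.52 or below in every class of both kinds of library with at least 30 cells.

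MHC class II, the main ligand of Lag3, differed between tumours in macrophages. H2-Ab1 was at 5646, 5760.1, 4567, 3849, 1838 and 1480.2 in E, EM1, EM2, EM3, M and the parental tumour in macrophages of the CD45 libraries. M and the parental tumour thus lay lowest where macrophage Lag3 lay highest. E, EM1, EM2 and EM3 did not follow that order: among them EM1 was highest and EM3 lowest in both genes. In dendritic cells of the CD45 libraries H2-Ab1 was at 8790.0 in E and 12284 in M. Macrophage markers in this class summed to 3943 in E and 1000 in M, and their part in this difference was not tested.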

How the data were processed

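Single-cell RNA sequencing of 12 libraries, a Total and a CD45 library from each of 6 tumours, was deposited as 1 table of counts per library, and the deposited counts are whole UMIs per gene and cell. Per the submitters' processing notes the reads were processed with Cell Ranger on the mm10 build, and the version is not given in the sources used here. Both a fixation kit and 3′ reagents are named in the labels, which leaves the chemistry unclear. Classes were taken from the authors' deposited annotation: a broader and a finer column for the CD45 cells and 1 column for the Total cells. The tables were already filtered by the authors.

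Doublets were scored in each library against simulated pairs (2 per cell, an expected 6%, 2000 variable genes and 30 components), and 2945 of 115612 cells (2.55%) above 1 shared limit of 0.263 were removed. Counts were summed over the cells of a class and library, and levels are counts scaled to a common total (CPM) with exact Poisson intervals of 95%. Ratios have exact conditional binomial intervals, shares of cells Clopper-Pearson intervals, and a sum of 0 was taken as 3 counts in a ratio. UMIs mark molecules, but cells of 1 tumour are not replicates, so intervals and floors cover counting error only and no p-value was computed between tumours. Sums of at least 30 cells were compared, except the cells with Siglech, of which some tumours held fewer. Genes were called at 2-fold among those with at least 10 UMIs over both sums together and 20 CPM in 1 of them. Shares of cells were taken after thinning each cell to 1000 UMIs.

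All 6 genes were measured in every class, and values are printed for some classes and tumours only. From the other gene lists, all members were counted, and the genes given values are up to 4 of the most abundant past 2-fold and up to 2 that are not. The 6 genes, the lists and the comparisons of M and EM3 with E were chosen with earlier results of these data known. Comparisons of M with EM1, EM2 and EM3 and of EM1 and EM2 with E were added after seeing the data. Steps were tested on simulated data. Python 3.11.15, NumPy 2.4.6, SciPy 1.17.1, pandas 2.3.3, scikit-learn 1.9.0, scikit-image 0.26.0 and matplotlib 3.10.9 were used. The position and promoter of Cd226 and the genes nearest to Lgals9 in level are not reported here, and the promoters of Lag3 and Tox were not analysed here.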

Additional observations from a re-analysis of the deposited data

Results flagged for a closer look

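Each value here is a log2 ratio of 2 tumours with an interval clear of 0, set beside another class in which the same gene lay in the opposite direction. The difference between classes was not tested, since each group is 1 tumour. Lag3 in Clone M over E was 0.77 in macrophages, against -1.54 in Gzmb+ Cd8+ T cells, -0.86 in Foxp3+ Cd4+ T cells and -1.17 in dendritic cells. Havcr2 in M over E was 0.44 in dendritic cells, against -1.27 in Gzmb+ Cd8+ T cells, -1.34 in Cd44+ Cd4+ T cells, -1.08 in Foxp3+ Cd4+ T cells and -0.67 in macrophages. The dendritic cell value of Havcr2 had the opposite direction in the Total libraries. Lgals9 in M over E was 0.28 in macrophages and -1.13 in dendritic cells. The macrophage value turned to -0.053 with median-of-ratios scaling, and in dendritic cells of the Total libraries the intervals of M and E overlapped. Lgals9 in EM3 over E was 0.52 in Cd44+ Cd4+ T cells, -0.062 in macrophages and -0.52 in dendritic cells. The macrophage value was 0.36 in the Total libraries.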

How the results depend on the processing

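No paired analysis was possible because each group is 1 tumour. Of 105 alternative values for the 11 main results, 93 stayed within the counting interval of the main value and kept its direction, 11 moved out of it and 1 reversed. The main value was the reported one, except for NK cells. There it was that of the finer column, with the broader column among the alternatives. Values are log2 ratios. Over both CD8 subtypes together, Lag3 was at -2.06 for M over E and -0.67 for EM3 over E, and 1 of the 6 genes was 2-fold lower in EM3. In cells of the Total libraries with a Cd8 UMI, Lag3 in EM3 over E was -0.22. At a 3-fold limit 2 of the 6 genes were lower in M. Havcr2 in macrophages, M over E, was -0.53 as a mean per cell, -1.0 with median-of-ratios scaling and -0.86 in the Total libraries. Lgals9 in macrophages, M over E, was 0.49 in the Total libraries and reversed to -0.053 with median-of-ratios scaling, which shifts all ratios of that comparison by 0.33. In T and NK cells Lag3 in M over E was -2.10 in the Total libraries and -0.32 among cells without any myeloid UMI, of which there were 31 in M and 72 in E. Of 642 values for 86 further results, 610 stayed, 29 moved and 3 reversed: Lgals9 in macrophages, EM3 over E, at 0.36 in the Total libraries, and, in T and NK cells without a myeloid UMI, Cd226 in M over E at 1.73 and Havcr2 in EM3 over E at 0.60. The cause was not tested. Over its alternatives Lag3 in Gzmb+ Cd8+ T cells, M over E, ran from -2.06 to -1.26, Havcr2 from -2.10 to -1.09, Tox from -3.43 to -1.72 and Tigit from -2.16 to -0.05. The limit to cells without any myeloid UMI is not among these alternatives. It left 4 of 63 Gzmb+ Cd8+ T cells in M and 18 of 561 in E, too few in M to compare. Among the clones the small number of cells limits Clone M most, where 63 Gzmb+ Cd8+ T cells held 1 UMI of Tigit, 5 of Tox and 14 of Havcr2.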

Other observations

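By the likeness of log2 levels across 38 sums of T-cell subtypes and NK cells, the genes nearest to Lag3 were Ptms (Pearson r 0.878), Gng2 (0.872) and Ece1 (0.868), among 9172 genes. Ptms lies at chr6:124913681-124920103 in GRCm38, 1975 bases from Lag3 on the same strand. The genes nearest to Tox were Ikzf4 (0.901), Tank (0.882) and Myl12b (0.880), to Tigit Id2 (0.853), Itgav (0.853) and Hacd3 (0.836), and to Cd226 Ostf1 (0.778), Farp1 (0.748) and Slc17a6 (0.740). These sums used the NK class of the finer column, which holds the cells with Siglech. Over 46 sums of the broader classes and 9228 genes, the nearest to Havcr2 were Gm2a (0.901), Sh3pxd2b (0.893) and Vim (0.883). The sums of 1 library share its depth and capture, so these values describe the libraries.

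Ceacam1, a partner of Tim-3, was at 41.7 CPM in tumour cells of Clone E and at 0.453 to 4.30 in those of the other 5 tumours.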
